A study of Homo sapiens with 8 samples.

Results

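POLRMT, TFAM, TFB1M, TFB2M, TEFM, MTERF4, NSUN4, MRM1, MRM2 and MRM3 are nuclear genes whose proteins transcribe mitochondrial DNA (mtDNA) or mature the ribosomal RNAs it encodes. These 10 genes were picked by symbol, with each Ensembl gene matched through GENCODE, from 60668 genes counted in every library, and all 10 passed the filter on low counts. They were chosen with earlier results of the same contrast known. Their differences between conditions are therefore given as values with standard errors and no p-values. Counts of those that passed a threshold are given as a description, and nothing is read from them.

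The libraries came from D283 MED, an established line of MYC-driven medulloblastoma, a childhood tumor of the cerebellum. The cells (D283-OMO) had been stably transduced by lentivirus with a doxycycline (DOX)-inducible, Flag-tagged OMOMYC, a dominant-negative form of MYC, and selected with hygromycin. The OMO group held 4 libraries of untreated cells and the OMO+DOX group 4 libraries of the same cells after 72 h of DOX, from independent biological replicates. All 8 libraries carried the transgene, and no library here came from DOX-treated cells without it. DOX belongs to the tetracyclines, which can inhibit the mitochondrial ribosome, so the effects of OMOMYC and of DOX itself cannot be told apart.

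The small circular mtDNA is copied into RNA from both of its strands by a single-subunit polymerase, POLRMT. TFAM bends the promoter, TFB2M opens it, and TEFM keeps the polymerase on its template during elongation. The long transcripts are cut into mRNAs, tRNAs and a small (12S, MT-RNR1) and a large (16S, MT-RNR2) rRNA, and both rRNAs are methylated as the mitochondrial ribosome is built. Many genes of ribosome biogenesis, in the nucleus and the mitochondrion, are known MYC targets.

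The methylated stretches of the rRNAs show what the modifying enzymes act on. In each, 30 bases were read from the GENCODE 29 transcript (GRCh38), 5′ to 3′, with the bases in question in capitals. TFB1M dimethylates adjacent adenines, here positions 936 and 937 of the 954 bases of MT-RNR1, in the loop of a hairpin with a stem of 10 base pairs near the 3′ end (chrM:1569-1598). MRM2 methylates the ribose of a uridine and MRM3 that of the guanosine after it, positions 1369 and 1370 of the 1559 bases of MT-RNR2, in the A-loop (chrM:3025-3054). MRM1 methylates a guanosine within a G run, positions 1144 to 1147 of MT-RNR2, in the P-loop (chrM:2801-2830).
MT-RNR1, TFB1M site: gguaaguguacuggAAagugcacuuggacg
MT-RNR2, A-loop: auuaaagguucguuUGuucaacgauuaaag
MT-RNR2, P-loop: aaaaauuucgguuGGGGcgaccucggagca

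Each library held between 38390696 and 54020506 counts, 46592947 to 54020506 in OMO and 38390696 to 49249167 in OMO+DOX. The study's mapping statistics list a larger share of unmapped reads in every OMO+DOX library than in any OMO library. The third OMO library stood apart for these genes: it was the highest of its group for 7 of the 10 genes and the lowest for 2. MYC, whose gene-level count does not separate its own reads from any of the OMOMYC transgene, measured 937 ± 75.5 CPM (counts per 1000000 of a library size scaled with TMM factors, mean ± SD, n = 4) in OMO and 1120 ± 56.6 CPM in OMO+DOX. The MYC target NCL fell from 1550 ± 58.5 to 1142 ± 5.74 CPM (edgeR, log2 fold change, log2FC, -0.44, adjusted p = 1.23e-06) and CAD from 162 ± 4.06 to 116 ± 4.73 CPM (log2FC -0.48, adjusted p = 1.33e-06). OTX2 (1046 CPM in OMO, 509 CPM in OMO+DOX) and CRX (126 and 20.9 CPM) mark this tumor type and were present. EOMES and LMX1A were below 1 CPM on average. Of the markers of other cells, PTPRC, CD68, PECAM1, GFAP and ALB were also below 1 CPM, and COL1A1 measured 22.1 CPM in OMO and 23.4 CPM in OMO+DOX.

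Among the genes that start transcription, none of POLRMT, TFAM and TFB2M separated the conditions. POLRMT measured 75.1, 73.6, 82.1 and 75.2 CPM in OMO replicates 1 to 4 and 73.2, 63.6, 77.9 and 79.6 CPM in OMO+DOX replicates 1 to 4. Of the treated libraries, 2 lay below every untreated one and 2 within their range. The means were 76.5 ± 3.82 and 73.6 ± 7.18 CPM (SD, n = 4 in each group), with a log2FC of -0.06 (SE 0.07). Without the second OMO+DOX library, the lowest, the log2FC was 0.0072.

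TFAM, which also packages mtDNA, measured 93.2, 86.5, 73.8 and 87.2 CPM in OMO and 93.3, 97.6, 94.4 and 86.2 CPM in OMO+DOX. A single untreated library, the third, lay well under the rest, and the groups overlapped. Mean levels were 85.2 ± 8.16 and 92.9 ± 4.80 CPM, and the log2FC was 0.12 (SE 0.07). Without the first OMO library it was 0.16.

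TFB2M measured 21.5, 20.3, 24.1 and 22.1 CPM in OMO and 22.6, 22.1, 24.0 and 21.4 CPM in OMO+DOX. These ranges lay almost on top of each other. The means of 22.0 ± 1.58 and 22.5 ± 1.08 CPM gave a log2FC of 0.03 (SE 0.06), the smallest of the 10 in absolute size. It was -0.0105 without the second OMO library.

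TEFM, the elongation factor, was lower with DOX. It measured 13.2, 12.9, 14.7 and 13.4 CPM in OMO and 10.2, 10.5, 9.95 and 10.3 CPM in OMO+DOX, and every treated library was below every untreated one. The mean went from 13.5 ± 0.810 to 10.2 ± 0.227 CPM, a level 24.4% lower, with a log2FC of -0.40 (SE 0.06). The number of POLRMT counts per TEFM count was 5.65 ± 0.0645 in OMO and 7.20 ± 0.813 in OMO+DOX (n = 4 in each), without overlap.

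TFB1M, the relative of TFB2M that methylates the small rRNA, showed the greatest difference of the 10 genes. It measured 14.8, 17.0, 16.2 and 15.0 CPM in OMO and 11.3, 11.3, 10.8 and 10.2 CPM in OMO+DOX. The lowest untreated library was above the highest treated one. The mean went from 15.7 ± 1.07 to 10.9 ± 0.514 CPM, 30.7% lower, with a log2FC of -0.53 (SE 0.06). With TFB2M nearly level, the count ratio of TFB2M to TFB1M was 1.40 ± 0.142 in OMO and 2.07 ± 0.114 in OMO+DOX.

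NSUN4 methylates a cytosine of the small rRNA and, bound to MTERF4, helps the ribosomal subunits to join. NSUN4 measured 37.7, 37.7, 35.4 and 38.9 CPM in OMO and 37.6, 40.6, 39.4 and 38.3 CPM in OMO+DOX. Its groups overlapped, and the means of 37.4 ± 1.48 and 39.0 ± 1.29 CPM gave a log2FC of 0.06 (SE 0.05). Its partner MTERF4 measured 39.2, 40.8, 42.2 and 40.2 CPM in OMO and 47.7, 49.5, 48.0 and 47.5 CPM in OMO+DOX. MTERF4 was thus higher in every treated library. Its mean was 40.6 ± 1.26 CPM in OMO and 48.2 ± 0.887 CPM in OMO+DOX, 18.7% higher, with a log2FC of 0.25 (SE 0.04). For 1 NSUN4 count there were 1.09 ± 0.0737 MTERF4 counts in OMO and 1.24 ± 0.0235 in OMO+DOX.

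The ribose methyltransferases of the large rRNA differed little. MRM1, the gene with the fewest counts of the 10 (193 to 290 per library), measured 4.42, 4.05, 5.80 and 4.49 CPM in OMO and 4.98, 4.80, 5.66 and 5.25 CPM in OMO+DOX. The third OMO library was the highest of all 8, and the other untreated libraries lay below the treated ones. The means were 4.69 ± 0.764 and 5.17 ± 0.373 CPM. The log2FC was 0.14 (SE 0.11) with all libraries and 0.26 without that library. MRM2 measured 20.2, 20.5, 22.2 and 19.9 CPM in OMO and 18.5, 18.6, 17.9 and 18.6 CPM in OMO+DOX. The groups did not overlap. Its mean went from 20.7 ± 1.07 to 18.4 ± 0.329 CPM, with a log2FC of -0.17 (SE 0.05). MRM3 measured 9.26, 10.7, 12.3 and 9.77 CPM in OMO and 9.44, 9.22, 10.4 and 10.4 CPM in OMO+DOX. Its groups overlapped, and the means of 10.5 ± 1.34 and 9.86 ± 0.619 CPM gave a log2FC of -0.09 (SE 0.09).

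**Figure D1:**
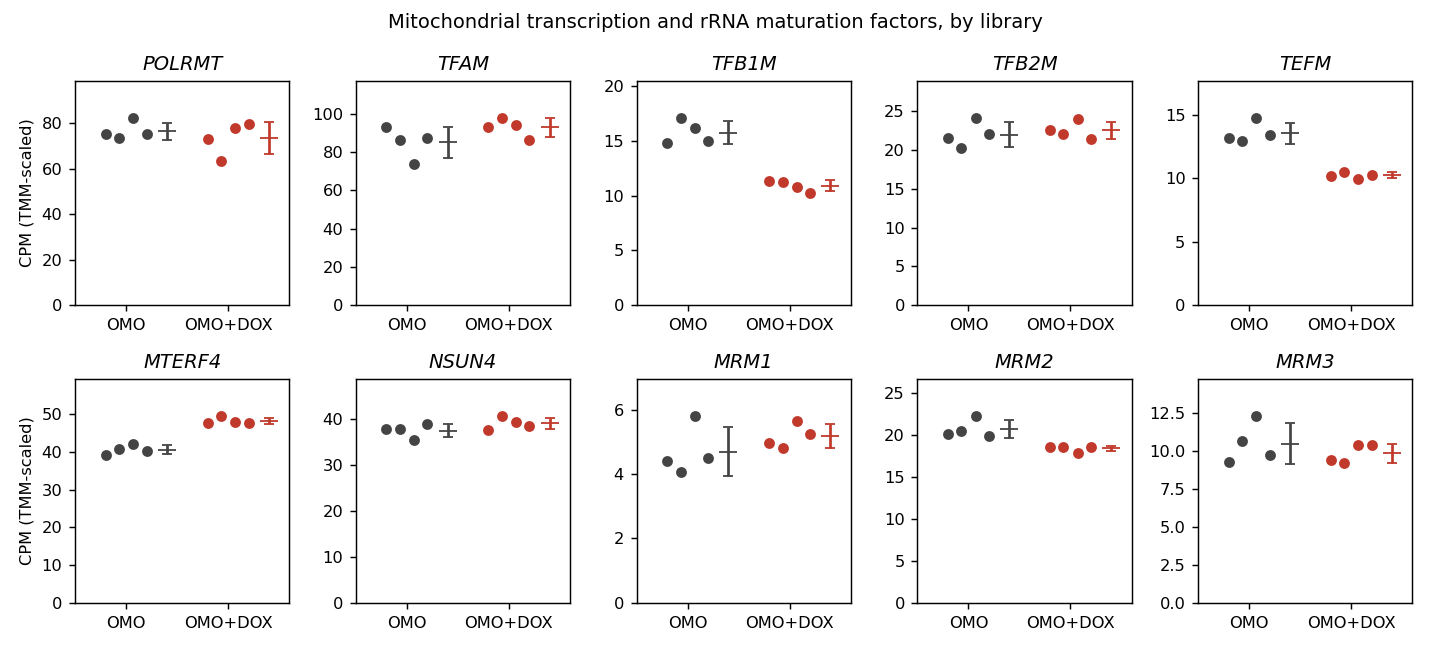
CPM (TMM-scaled) of each of the 10 genes in the 4 OMO libraries (gray) and the 4 OMO+DOX libraries (red), each point 1 library in replicate order from left to right, with the mean and SD beside them. TFB1M, TEFM and MRM2 lie lower and MTERF4 lies higher in every OMO+DOX library, and the groups of the other 6 genes overlap.

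Of the 10 genes, 4 passed an adjusted p below 0.05, of which MTERF4 was higher and TFB1M, TEFM and MRM2 lower. The same threshold was passed by 76.6% of the 15222 genes tested (38.5% higher and 38.1% lower), and the groups of 71.7% of genes did not overlap, as against 4 of the 10. None of the 10 met the stricter thresholds in the study's methods, an adjusted p below 0.001 with an absolute log2FC above 2, which 7.12% of all genes met, and none had an absolute log2FC above 2 at all. As the genes were chosen with this contrast known, nothing is read from these counts. The median log2FC of the 10 was -0.01, beside 0.01 for all genes tested, and their median absolute log2FC was 0.133, beside 0.433. In absolute log2FC, TFB1M exceeded 57.9% of all genes tested, TEFM 47.3%, MTERF4 31.1% and MRM2 22.0%, and the other 6 between 4.67% and 18.8%. The summed level of the 10 was 327 ± 2.20 CPM in OMO and 331 ± 5.10 CPM in OMO+DOX.

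**Figure D2:**
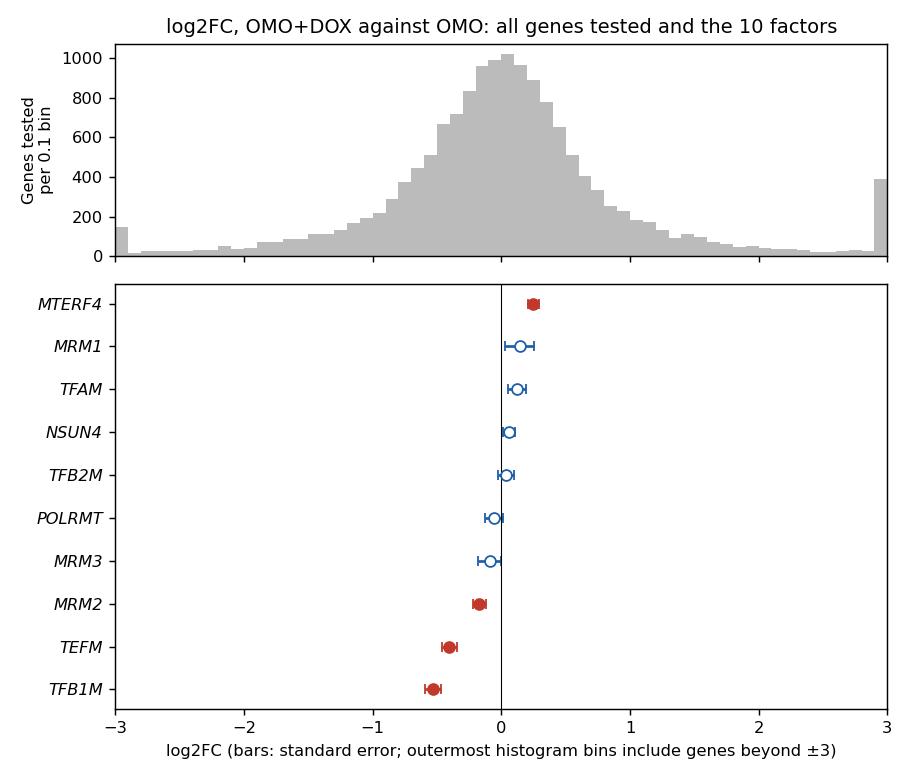
Upper panel, number of genes tested per 0.1 of log2FC, OMO+DOX against OMO, with genes beyond ±3 in the outermost bins. Lower panel, log2FC and standard error of the 10 genes (filled, groups that do not overlap; open, groups that overlap), which all lie between -0.53 and 0.25.

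With library sizes alone in place of the TMM factors, the median log2FC of all genes moved up by 0.126. The log2FC of POLRMT was then 0.07 and that of MRM3 0.04, both turned in sign. That of MRM2 was -0.04 and no longer passed the threshold. On that scale 5 of the 10 genes were called higher and 2 lower. Of all 15222 genes tested, 11877 were called on the same scale, and 7151 of these (60.2%) were higher. From the counts of the 10 genes, too, nothing is read. Over the 15 alternative fits, the log2FC of TFB1M ranged from -0.57 to -0.40, that of TEFM from -0.44 to -0.28 and that of MTERF4 from 0.22 to 0.37.

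Levels of different genes were compared as CPM per kilobase of annotated exon. In OMO, TFAM (15.2 ± 1.46) and POLRMT (14.9 ± 0.746) were the most abundant, and their ranges overlapped. TFB2M (11.9 ± 0.855) and MRM2 (7.28 ± 0.377) followed, each apart from its neighbors. TFB1M (5.76 ± 0.393), MRM3 (5.08 ± 0.648), NSUN4 (4.42 ± 0.175), TEFM (4.20 ± 0.251) and MTERF4 (4.09 ± 0.127) formed a run in which each overlapped the next. MRM1 was the least abundant, at 2.53 ± 0.411. In OMO+DOX, TFB1M moved from rank 5 to rank 8 and MTERF4 from rank 9 to rank 5. The order depends on the length used. Per kilobase of the longest transcript POLRMT (19.9) came before TFAM (15.7) in OMO, and TFB1M was at 11.1 and MTERF4 at 8.97.

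The genes lie on chromosomes 1 (TFB2M and NSUN4), 2 (MTERF4), 6 (TFB1M), 7 (MRM2), 10 (TFAM), 17 (TEFM, MRM1 and MRM3) and 19 (POLRMT). TFB1M spans chr6:155257509-155314493, TEFM chr17:30897336-30906820, MTERF4 chr2:241072169-241102332 and MRM2 chr7:2234231-2242198, all on the minus strand of GRCh38 (GENCODE 29). Exons of TFB1M, TEFM, MTERF4 and MRM3 overlap those of genes on the opposite strand. Whether counting used the strand is not stated, and reads of the overlapping stretches cannot be told apart without it. TFB1M shares 215 exonic bases with TIAM2, which fell from 26.5 ± 2.0 to 8.17 ± 0.455 CPM (log2FC -1.70, adjusted p = 8.88e-10, edgeR). TEFM shares 542 bases with AC130324.3 (0.894 CPM in OMO, 0.316 CPM in OMO+DOX) and 301 bases with ADAP2 (4.58 and 4.28 CPM). Both partners were less abundant than TEFM. MTERF4 shares 5071 bases with SNED1, which rose from 1.90 ± 0.464 to 3.25 ± 0.686 CPM (log2FC 0.78, adjusted p = 0.00264, edgeR), and MRM3 shares 721 bases with GLOD4, which fell from 37.8 ± 2.38 to 33.1 ± 1.56 CPM (log2FC -0.19, adjusted p = 0.00832, edgeR). The part of these partners in the values of the 4 genes was not tested. RSEM divides a read that fits more than 1 gene, and it gave POLRMT, TFB1M and TEFM fractional counts in all 8 libraries and MTERF4 and MRM2 in 7, while TFAM, TFB2M, NSUN4, MRM1 and MRM3 had whole counts throughout.

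The promoters of the 10 genes were searched, as a description, for motifs of factors known to act on genes of this kind. The windows, 250 bases before to 50 after each RefSeq start (GRCh38.p14), were found for all 10 genes, with a pair of starts for NSUN4. The letters were CACGTG (the E-box that MYC and MAX bind), GCGC and TGCGC with any 1 base between them (the core of the NRF1 site) and CCGGAAG (a core bound by GABPA and other ETS factors), on both strands. They occurred in 7.26%, 5.78% and 10.3% of 35116 promoters of that length. The E-box was present in 1 gene, MRM1, from 21 bases after the start. NRF1 cores were present in POLRMT (2, which overlap each other), TFAM (1) and TFB1M (1). The CCGGAAG core occurred 3 times each in MTERF4 and MRM2 and once each in POLRMT, TFB1M, TEFM and MRM1. None of the motifs was in the windows of TFB2M, NSUN4 or MRM3, which says only that these letters are not there. The windows below, of 30 bases on the strand of the gene, show the E-box of MRM1 (chr17:36601591-36601620), the NRF1 cores of TFB1M (chr6:155314597-155314626), TFAM (chr10:58385337-58385366) and POLRMT (chr19:633542-633571), and the CCGGAAG core of TEFM (chr17:30906227-30906256), MTERF4 (chr2:241102323-241102352) and MRM2 (chr7:2242206-2242235), with the motif in capitals.
MRM1, E-box: aagcgagggaccCACGTGggagcctgggag
TFB1M, NRF1 core: gcaggacttaGCGCATGCGCtctcagcacg
TFAM, NRF1 core: acgctctcccGCGCCTGCGCcaattccgcc
POLRMT, NRF1 core: ggcggcgcggGCGCATGCGCaggcgcgggc
TEFM, ETS core: agcacgcaggaaCCGGAAGtcaatggagga
MTERF4, ETS core: acggaccgggggCCGGAAGtgaaggacggg
MRM2, ETS core: cgtggcctctgaCCGGAAGtgaggccaggc

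**Figure D3:**
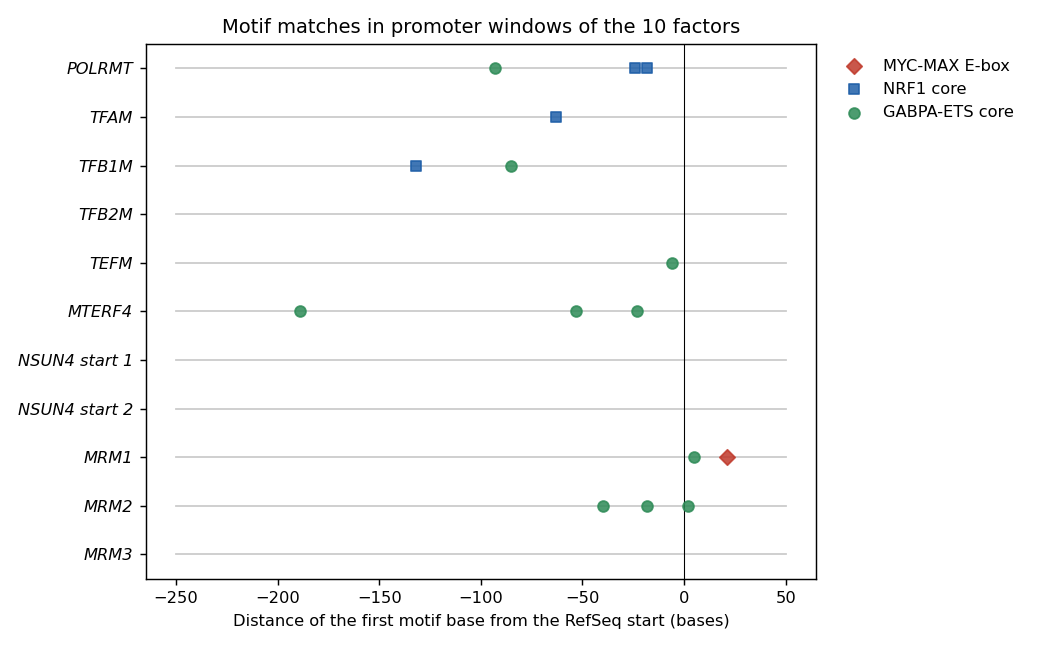
Matches to the 3 motifs in the promoter windows of the 10 genes, by the distance in bases of the first motif base from the RefSeq start (0, vertical line). The single E-box lies in MRM1, NRF1 cores lie in POLRMT, TFAM and TFB1M, and TFB2M, both NSUN4 starts and MRM3 hold no match.

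The RNAs that these factors make were counted in the same libraries, and the rRNAs differed by far more than any of the factors. The small rRNA MT-RNR1, the substrate of TFB1M and NSUN4, measured 347, 338, 457 and 328 CPM in OMO and 5722, 6062, 6205 and 5659 CPM in OMO+DOX (log2FC 4.01, SE 0.10, adjusted p = 2.25e-11, edgeR). The large rRNA MT-RNR2, the substrate of MRM1, MRM2 and MRM3, measured 4639, 4424, 4778 and 4219 CPM in OMO and 14943, 15744, 15617 and 15137 CPM in OMO+DOX (log2FC 1.77, SE 0.05, adjusted p = 2.85e-11, edgeR). Both rRNAs rose in every treated library. The libraries were made from poly(A)+ RNA, in which rRNA is counted only as far as it is carried through that selection. The 7SL and 7SK RNAs, which are not polyadenylated as mRNAs are and were looked up after the data were seen, fell. RN7SL1 went from 234 ± 75.1 to 96.6 ± 17.5 CPM and RN7SL2 from 382 ± 123 to 145 ± 28.8 CPM (edgeR, adjusted p = 0.00023 and 0.000133). RN7SK went from 4.29 ± 0.872 to 2.26 ± 0.537 CPM (edgeR, adjusted p = 0.00074), and its groups overlapped. The part of tail length or of carry-over in the rRNA values was not tested.

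Of the 13 mtDNA mRNAs, 3 rose, 5 fell and 5 did not pass the test (6 rose and 5 fell with library sizes alone). The 8 that changed are 61.5% of the mRNAs, beside 76.6% of all genes tested. The light-strand mRNA MT-ND6 rose (log2FC 1.23, SE 0.07), as did MT-ND5 (0.97) and MT-ND3 (0.46). MT-CO1 fell from 15635 ± 691 to 5854 ± 215 CPM (log2FC -1.42, SE 0.05, adjusted p = 1.33e-10, edgeR), and MT-CO3 (-0.62), MT-CO2 (-0.61), MT-ND1 (-0.47) and MT-ND4 (-0.23) fell too. MT-ND2, MT-ATP8, MT-ATP6, MT-ND4L and MT-CYB had log2FC between -0.07 and 0.09. Without the third OMO library, that of MT-CYB was 0.13 and passed the threshold, and that of MT-ND4L was -0.05. MT-ND6 lies opposite the heavy-strand transcript, so its reads, too, can be told apart only by strand.

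Together, the mtDNA-encoded genes took 4.84 ± 0.190% of counts in OMO and 5.80 ± 0.113% in OMO+DOX (n = 4 in each, exact 2-sided permutation test, p = 0.0286, the smallest that 4 against 4 allows). The rRNAs rose from 0.467% to 2.22% of counts, whereas the mRNAs fell from 4.38% to 3.58% (p = 0.0286 for each by the same exact test). MT-RNR1 counts were 8.11 ± 0.971% of MT-RNR2 counts in OMO and 38.5 ± 0.967% in OMO+DOX. MT-ND6 counts were 1.08 ± 0.0534% of heavy-strand mRNA counts in OMO and 3.48 ± 0.227% in OMO+DOX. Both ratios, which do not depend on the scaling of the libraries, were higher in every treated library (exact permutation test on the log2 ratio, p = 0.0286, and 0.0286 after Benjamini-Hochberg adjustment over the 5 such tests). Both compare RNAs only as far as they were carried through the poly(A)+ selection. The part of tail length in either ratio, and in the mRNA values, was not tested. Nuclear pseudogenes of mtDNA (394 rows) summed to 439 CPM in OMO and 447 CPM in OMO+DOX, and none of the 22 mitochondrial tRNAs passed the filter. As in any bulk sample, a lower level of an RNA in each cell and fewer cells that hold it cannot be told apart.

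**Figure D4:**
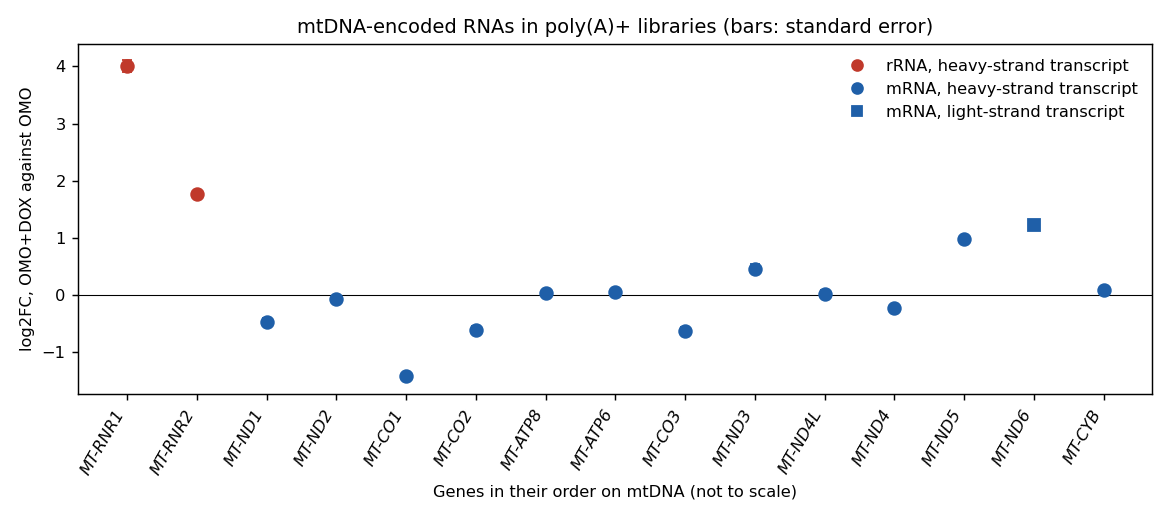
log2FC of the mtDNA-encoded rRNAs (red) and mRNAs (blue), OMO+DOX against OMO, with standard errors mostly within the symbols and genes in their order on mtDNA. MT-RNR1 (4.01) and MT-RNR2 (1.77) lie above all mRNAs, and MT-CO1 (-1.42) lies lowest.

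The other nuclear genes of the pathway, in 5 lists drawn up by function, are given beside the 10 factors. The lists, too, were chosen with earlier results of these data known. Of these 63 genes 16 rose, 26 fell and 21 did not pass the test, with a median log2FC of -0.09 and a median absolute log2FC of 0.224. The share that changed was 66.7%, beside 76.6% of all genes tested (38.5% higher and 38.1% lower), and in the 5 lists it ran from 63.2% to 80.0%. With library sizes alone 26 rose and 17 fell. Of 9 other factors of transcription and transcript stability, 2 rose and 4 fell (4 and 2 with library sizes alone). MTERF3, a relative of MTERF4, rose most (log2FC 0.74), and the mitochondrial topoisomerase TOP1MT (-0.72) and the single-strand binding protein SSBP1 (-0.51) fell most. The count of 2 risen was 1 when any of 6 of the 8 libraries was left out, the exceptions being the third OMO and the fourth OMO+DOX library. Of 16 genes of RNA processing, polyadenylation and decay, 7 rose and 4 fell (10 and 3 with library sizes alone), and those with the greatest change were the nuclease PNPT1 (0.67), the CCA-adding enzyme TRNT1 (0.54) and the oligonucleotide exonuclease REXO2 (0.54).

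Of 19 other factors of rRNA modification and ribosome assembly, 3 rose and 9 fell (6 and 6 with library sizes alone). They included MPV17L2 (log2FC 1.0), the GTPase NOA1 (-0.94) and the pseudouridine synthase family member RPUSD3 (-0.74). Of 11 genes of mtDNA replication, 1 rose and 6 fell (3 and 5 with library sizes alone), led by the nucleases DNA2 (-1.05) and MGME1 (-0.98). Without the second OMO+DOX library 2 rose. Among 10 regulators of mitochondrial biogenesis, 4 rose and 4 fell (4 and 2 with library sizes alone). The coactivator PPARGC1B rose from 17.2 ± 2.47 to 270 ± 17.5 CPM (log2FC 3.98, SE 0.10, adjusted p = 1.75e-11, edgeR) and the nuclear receptor ESRRA, its partner, from 13.3 ± 0.392 to 44.3 ± 2.02 CPM (log2FC 1.74, adjusted p = 5.03e-11, edgeR). Among the factors whose motifs were searched, NRF1 fell (log2FC -0.29, adjusted p = 0.000175, edgeR) and GABPA rose (0.38, adjusted p = 0.00106, edgeR). PPRC1 fell (-0.20, and -0.07 with no call with library sizes alone), and PPARGC1A, at 4.25 CPM in OMO and 4.60 CPM in OMO+DOX, did not pass the test (adjusted p = 0.337, edgeR).

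**Figure D5:**
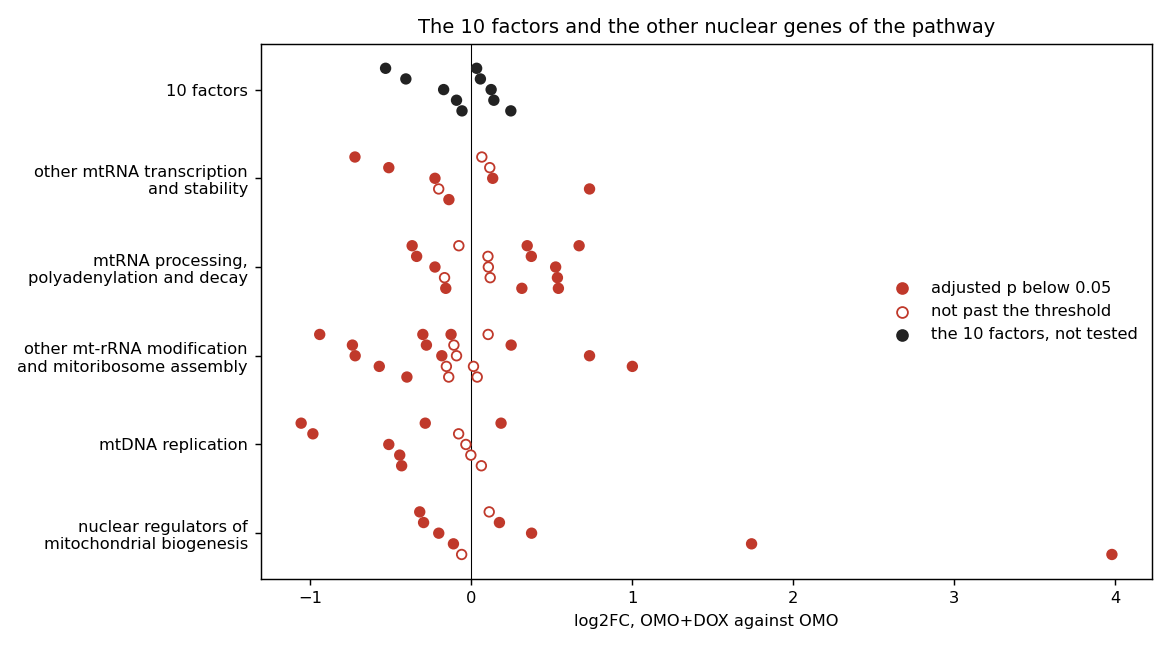
log2FC, OMO+DOX against OMO, of the 10 factors (black, calls not marked) and of the genes of the 5 other lists (filled red, adjusted p below 0.05; open, not past the threshold), each point 1 gene, with MTERF3 and SSBP1 in 2 lists each. The 10 factors lie between -0.53 and 0.25, and PPARGC1B (3.98) and ESRRA (1.74) lie farthest to the right.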

How the data were processed

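Gene expression was measured by RNA-Seq of poly(A)+ RNA (stranded kit, paired reads) in 4 OMO and 4 OMO+DOX libraries, grouped by their labels. The authors trimmed reads with Trim Galore (minimum length 20), aligned them with STAR to GENCODE release 32 (GRCh38) and deposited RSEM expected counts, which are not normalized. RSEM thus split multi-mapped reads between genes before deposit, which leaves some counts fractional. Expected counts were rounded, and the 15222 genes above 1 CPM in 4 or more of the 8 libraries were fitted with edgeR 4.0.16 in R 4.3.3 (TMM, quasi-likelihood test, no covariates, Benjamini-Hochberg adjustment over all genes tested). Standard errors were derived from each log2FC and the root of its F statistic. In simulated data of 15222 genes built on this comparison, the test recovered 47 of 50 genes set to a log2FC of -1 and 50 of 50 set to 1. It called 10 of 15022 genes left unchanged. No gene was set to a smaller absolute log2FC than 1, and in the data themselves 76.6% of genes were called. The simulation thus does not show recovery of differences as small as those of the 10 genes, or error rates with so many changes.

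The 10 genes and the other lists were chosen with earlier results of these data known. Named were the 10 genes, all mtDNA mRNAs and rRNAs, of each other list up to 3 called genes with the greatest absolute log2FC and no overlap between groups, among the regulators also NRF1, PPARGC1A, PPARGC1B (named by both parts of the rule) and PPRC1, and MYC, NCL and CAD. Symbols, positions and exon lengths came from GENCODE 29 (58561 of 60668 rows matched), promoters from RefSeq (GRCh38.p14). Single values per library were compared by exact 2-sided permutation tests (Python 3.11.15, scipy 1.17.1). Library totals were 38390696 to 54020506 counts. Within groups, edgeR estimated a common coefficient of biological variation of 0.0745. Alternatives were DESeq2 1.42.0 (size factors, Wald test), library size alone, libraries without mtDNA rows, other filters, a replicate block, each library left out, and other lengths and thresholds.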

Additional observations from a re-analysis of the deposited data

Results flagged for a closer look

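In 60 groups of 4 libraries, the highest or lowest library was set against the rest of its group by Dixon's test, which marks about 1 in 20 groups by chance, or 3 here. It marked 7. Among the 10 factors, 1 was marked: the third OMO+DOX library had 17.9 CPM of MRM2, beside 18.53, 18.57 and 18.58 CPM in the others. The other 6 were all in the third OMO library, which also gave the highest or lowest value of its group for 9 of the 10 factors. It had 3622 CPM of MT-ND2 (others 3236 to 3286), 577.8 CPM of MT-ND3 (others 444.2 to 458.8), 563.1 CPM of MT-ND6 (others 461.9 to 474.9) and 456.5 CPM of MT-RNR1 (others 327.7 to 346.9). The share of its counts on mtDNA-encoded genes was 5.127% (others 4.732 to 4.78%), and its log2 ratio of MT-RNR1 to MT-RNR2 counts was -3.388 (others -3.741 to -3.686). Without this library the difference in the mtDNA share was 1.05 percentage points instead of 0.958, and that in the log2 ratio 2.33 instead of 2.25.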

How the results depend on the processing

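With library size alone, the median log2FC of all genes was 0.14 (0.01 with TMM) and 60.2% of calls were higher with DOX (50.3% with TMM). Called higher were then 5 of the 10 factors, 6 mtDNA mRNAs, 4 other transcription and stability factors (2 lower), 6 other rRNA factors, 3 replication genes and 26 of the 63 pathway genes (17 lower), and 2 regulators were lower. POLRMT (0.07), MRM3 (0.037) and MT-ND2 (0.0602) turned in sign. With more than 1 CPM asked in more than 4 libraries, 562 genes met the thresholds of the study's methods, and with no filter 2099 did, against 1084. With no filter 1 transcription and stability factor was higher and MT-ND4L was at -0.0021. Under those thresholds 0 of the 10 factors were higher and 0 lower. With mRNAs only, the mtDNA share differed by -0.797 percentage points.

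With 1 library left out, 1 to 2 of the 10 factors were called higher, 1 to 2 transcription and stability factors and 1 to 2 replication genes. In the same fits 5575 to 6036 of the 15222 genes tested were called higher. The log2FC of TFB2M ranged from -0.0105 (without OMO replicate 2) to 0.078, that of POLRMT from -0.0956 to 0.0072 (without OMO+DOX replicate 2) and that of MT-ND4L from -0.0458 (without OMO replicate 3) to 0.0512. The differences ranged from 0.910 to 1.05 percentage points for the mtDNA share, from 2.22 to 2.33 for the log2 ratio of MT-RNR1 to MT-RNR2 and from 1.65 to 1.72 for that of MT-ND6 to heavy-strand mRNAs, each with an exact permutation p of 0.0571, the smallest that 3 against 4 allows. Untreated CPM per kilobase of the longest transcript were 19.9 for POLRMT, 11.1 for TFB1M, 8.97 for MTERF4, 8.62 for NSUN4, 8.24 for MRM2, 6.42 for TEFM and 5.80 for MRM3.

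Whether the replicate numbers pair the libraries is not stated, and 4 numbers are too few to decide it. Deviations of same-numbered libraries correlated at 0.157, 0.144, 0.241 and -0.176, and 1 of 4 numbers matched itself best. A replicate block called 11805 genes (5962 higher) against 11661 and changed no call among the 10 factors and the mtDNA genes.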
